A study of Mus musculus with 120 samples.

Results

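Txnip, the thioredoxin-interacting protein gene, and 3 genes of the same system, Txn1, Arrdc3 and Arrdc4, were followed across a halofuginone dose series in mouse bone-marrow-derived macrophages. These are 4 of the 23481 gene symbols in the deposited table, matched by symbol, and all 4 had a row. Txnip was selected on measured values: it was among the genes that were higher in 1 contrast, the change from control at T1 less that at T0 under halofuginone without proline. Its libraries are the T0 and T1 controls and those at 625 to 10000 nM without proline at T0 and T1. Every Txnip comparison that uses any of them is given below as a description, with no p. Txnip was tested where none of them enters: at T4 against T4 controls, between the arms at 39 and 156 nM and at T4, and along the doses with proline or at T4. The other 3 genes were picked for what they encode, with earlier results of these data known.

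Thioredoxin, the product of Txn1, is a small protein that reduces disulfide bonds in other proteins and supplies electrons to peroxiredoxins. Thioredoxin reductase recharges it with electrons from NADPH. Txnip binds reduced thioredoxin and inhibits it. As an alpha-arrestin it also promotes the removal of glucose transporters from the cell surface. Its transcription is known to follow sugar phosphates through the factors MondoA and ChREBP, and its mRNA and protein are short-lived. In macrophages it has been studied as a partner of the NLRP3 inflammasome. Arrdc4 is its closest sugar-regulated relative, and Arrdc3 is an alpha-arrestin studied on beta-adrenergic receptors. Halofuginone occupies the proline site of the prolyl-tRNA synthetase, so that added proline competes with it, and LPS is the bacterial ligand of Toll-like receptor 4.

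The cells were grown from wild-type marrow of male C57BL/6 mice aged 12 weeks. All groups, controls included, were transduced with the same library of transcription factor reporter viruses before they were replated into wells. The 120 libraries comprised 12 controls at every time label (T0, T1, T4) and a pair of libraries per time and arm at 7 halofuginone doses (2.4, 9.7, 39, 156, 625, 2500 and 10000 nM), the arms being without and with 2 mM proline. The sources state a pretreatment of 30 minutes before LPS and a dose curve with and without LPS, but the time labels carry no unit, no label says which libraries received LPS, and the controls carry no proline label. The number of animals and cultures is not given, so p-values measure only the spread between these libraries, which may be technical.

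Totals ran from 20000 to 114061 counts per library with a median of 49515, which makes the members' counts small: over all 120 libraries Txnip had 1395 counts, Txn1 746, Arrdc4 100 and Arrdc3 26. The ribosomal precursor Rn45s held 47.7%, 43.6% and 38% of counts on average in the controls at T0, T1 and T4 but 62.3%, 62.8% and 64.6% at 625 to 10000 nM without proline, and 4 of those 6 libraries at T1 had under 30000 counts. Both moved with the dose, and their part in the results below was not tested, beyond the values given without those libraries and without Rn45s. Macrophage markers over 11 genes summed to 2034, 2539 and 2447 CPM (counts per 1000000, scaled by TMM) in the controls at T0, T1 and T4. At 625 to 10000 nM without proline they summed to 1565, 1274 and 1032 CPM at the same times. B cell, erythroid, mast cell and fibroblast markers were at or near 0. Markers of neutrophils, which the marrow culture could hold, summed to 164.8 to 397.9 CPM in T0 controls and to 0 to 118 CPM in the 6 T0 libraries at 625 to 10000 nM. They fell with the dose in the direction opposite to Txnip, and their part in the results was not tested.

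The promoters are shown because the sugar-response motif that Txnip is known for lies in this stretch, with those of Txn1 and Arrdc4 beside it for comparison. All 4 members matched the RefSeq promoter table (GRCm38.p6, the build also called mm10). The 250 bases before the start site are printed in the direction of transcription, with every match to 6 motifs in capitals: the carbohydrate response element (CACGNG, 5 bases of any kind and CACGNG again, the MondoA and ChREBP site), the E-box (CACGTG), the CCAAT box (CCAAT), a forkhead motif (GTAAACA), the antioxidant response element core (TGACNNNGC) and an ATF4 composite motif (TGATGNAA). Both strands were searched. The E-box can lie within a carbohydrate response element, and no other overlap was removed.
Txnip, chr3:96557707-96557956, plus strand: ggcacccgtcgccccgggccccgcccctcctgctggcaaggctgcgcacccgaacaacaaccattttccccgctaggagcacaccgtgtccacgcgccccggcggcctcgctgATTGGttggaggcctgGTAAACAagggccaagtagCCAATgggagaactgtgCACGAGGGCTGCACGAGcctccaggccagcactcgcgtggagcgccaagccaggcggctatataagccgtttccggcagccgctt
Txn1, chr4:57956412-57956661, minus strand: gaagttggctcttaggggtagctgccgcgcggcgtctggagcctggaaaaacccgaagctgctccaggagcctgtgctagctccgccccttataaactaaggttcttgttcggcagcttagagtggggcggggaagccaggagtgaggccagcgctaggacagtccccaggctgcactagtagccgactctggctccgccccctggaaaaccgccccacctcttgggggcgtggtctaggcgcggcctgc
Arrdc4, chr7:68749239-68749488, minus strand: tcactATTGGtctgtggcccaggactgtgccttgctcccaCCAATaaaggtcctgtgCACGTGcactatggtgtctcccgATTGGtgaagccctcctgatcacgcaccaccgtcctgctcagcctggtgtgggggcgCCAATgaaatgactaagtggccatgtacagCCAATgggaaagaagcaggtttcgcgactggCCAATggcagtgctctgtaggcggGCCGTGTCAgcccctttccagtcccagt

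The Txnip stretch held 1 carbohydrate response element, at 85 to 69 bases before the start, a motif that 0.0457% of the 32851 promoter stretches of the same length held. It also held 1 forkhead motif at 121 to 115 bases before the start, which 3.17% of stretches held, and 2 CCAAT boxes, which 33.8% held. The Txn1 stretch matched none of the 6 motifs. The Arrdc4 stretch held 6 CCAAT boxes, 1 E-box (in 6.02% of stretches) and 1 antioxidant response element core (in 10.2%), and no carbohydrate response element. Of the 3 Arrdc3 stretches in the table, 2 held 1 CCAAT box each and no other motif was matched, and an ATF4 composite motif, found in 3.45% of stretches, was in none of the members' stretches. These are matches of letters, not measured binding. In the GENCODE M21 annotation of GRCm38, Txnip lies on chromosome 3 from 96557957 to 96561883 (plus strand, 8 exons), Txn1 on chromosome 4 from 57943373 to 57956411 (minus strand, 5 exons), Arrdc4 on chromosome 7 from 68736995 to 68749241 (minus strand, 8 exons) and Arrdc3 on chromosome 13 from 80883384 to 80896042 (plus strand, 8 exons). The assay counted the 3′ ends of transcripts.

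In the control macrophages, Txnip was far lower at T1 and T4 than at T0, while Txn1 rose by T4. Txnip had between 3 and 28 counts in the 12 T0 controls (median 16), between 0 and 6 in the 12 T1 controls (median 1) and between 0 and 7 in the 12 T4 controls (median 5). Every T0 control but 2 was above every T1 and T4 control in CPM: the T0 libraries lay between 54.6 and 466.7 CPM, the T1 libraries between 0 and 64.3 and the T4 libraries between 0 and 101.1. The mean level was 267.8 ± 131.9 CPM (SD, n = 12) at T0, 21.7 ± 20.4 at T1 and 55.5 ± 33.1 at T4. So few counts remained at T1 and T4 that Txnip did not pass the filter on low counts (filterByExpr, minimum count 10) over the 36 controls, and it was kept in the fit by an alternative chosen after seeing the data. There the fitted log2 change was -3.56 (SE 0.37) at T1 and -2.51 (SE 0.30) at T4 against T0, and 1.05 (SE 0.46) at T4 against T1, from 18 to 52 counts over 12 libraries each. All 3 rest on controls that entered the choice of Txnip and are descriptions.

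Txn1 was the only 1 of the 4 members to pass the filter in the controls, where 76.4% of the 708 genes tested were called between T4 and T0. It had 1 to 10 counts per library at T0 (median 4.5), 3 to 10 at T1 (median 7.5) and 7 to 38 at T4 (median 19). Txn1 therefore passed the filter mostly through the T4 controls, its high group, and the p-values of its rise carry that limit. The mean level was 73.2 ± 36.4 CPM at T0, 112.1 ± 41.9 at T1 and 275.9 ± 130.7 at T4 (SD, n = 12 each), and the T4 range of 125.0 to 534.5 overlapped only the top of the T0 range, which reached 136.4. The T1 value did not differ from T0 beyond the spread (log2 change 0.40, SE 0.30, edgeR adjusted p = 0.352, where 26.1% of genes were called). At T4 Txn1 was 2.95-fold higher than at T0 (log2 1.56, SE 0.26, adjusted p = 4.256e-07) and 2.24-fold higher than at T1 (95% interval 0.68 to 1.64 on the log2 scale, adjusted p = 4.328e-05, where 62.1% were called).

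**Figure D1:**
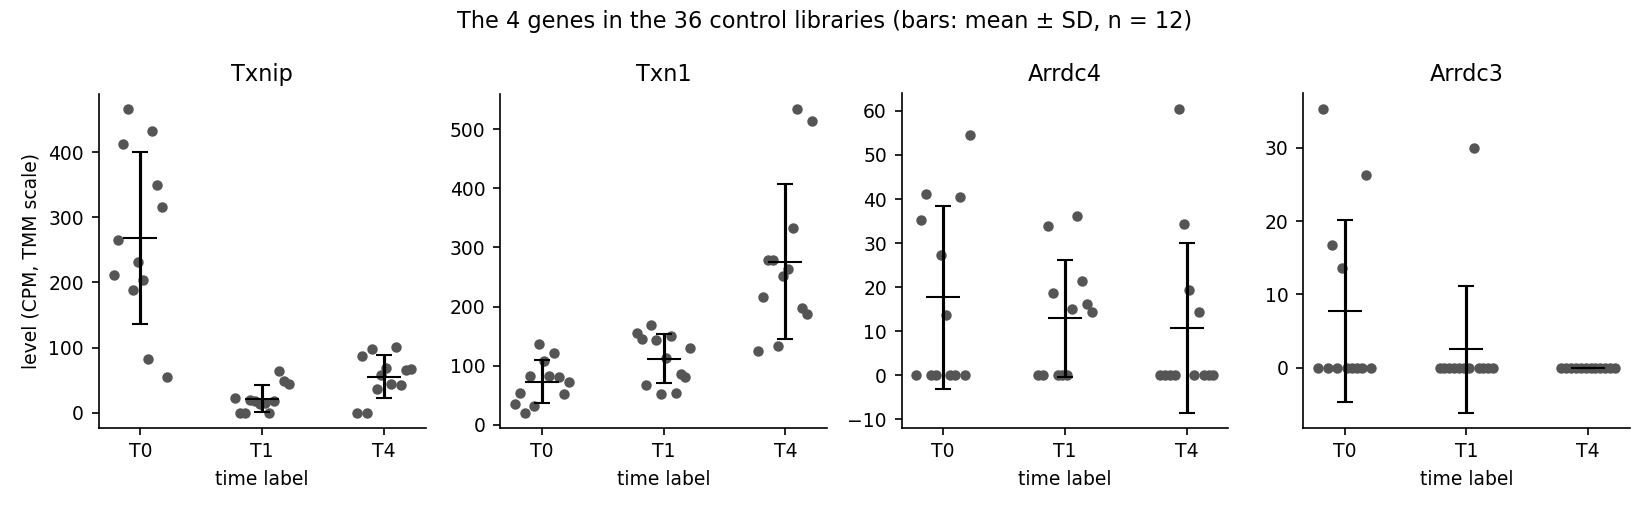
Level of each of the 4 genes (CPM on the TMM scale, linear axes that differ between genes) in every control library by time label, with the mean and SD of 12 libraries as bars. Txnip drops from a mean of 267.8 at T0 to 21.7 at T1, Txn1 climbs to 275.9 at T4, and Arrdc4 and Arrdc3 are at 0 in many or most libraries.

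Under halofuginone Txnip was higher than in controls at T0, from a dose of 39 nM upward and in both arms. Without proline the library pairs held 21 and 27 Txnip counts at 2.4 nM, 20 and 35 at 9.7 nM, 38 and 56 at 39 nM, 27 and 24 at 156 nM, 22 and 32 at 625 nM, 29 and 21 at 2500 nM and 22 and 16 at 10000 nM. With proline they held 18 and 12, 14 and 19, 50 and 31, 31 and 54, 47 and 22, 22 and 20, and 31 and 24 counts in the same order of doses. In CPM, all 20 libraries from 39 nM upward lay above the highest T0 control, while 1 of the 8 at 2.4 and 9.7 nM did.

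The level did not keep rising beyond 39 nM. Without proline the mean was 425.4 ± 132.4 CPM at 2.4 and 9.7 nM (SD, n = 4), 721.3 ± 167.7 at 39 and 156 nM (n = 4) and 638.6 ± 129.8 at 625 to 10000 nM (n = 6). With proline it was 257.8 ± 56.0, 701.6 ± 178.7 and 619.1 ± 128.3. The middle and the highest doses overlapped in both arms. In the middle of the range, at 39 and 156 nM, the fitted level was 2.71-fold that of the controls without proline (log2 1.44, SE 0.26, in a comparison where edgeR called 28.4% of 1130 genes) and 2.62-fold with it (95% interval 0.91 to 1.87 on the log2 scale, where 13.5% were called). At 625 to 10000 nM with proline it was 2.43-fold (log2 1.28, SE 0.23, where 43.5% were called), and without proline the log2 change was 1.48. Txnip was the only member to pass the filter at T0, and these comparisons share their 12 controls, which entered the choice.

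At T1, when Txnip had nearly gone from the controls, it was also lower than at T0 in the treated cells but remained there from 39 nM upward. Without proline the mean went from 721.3 CPM at T0 to 307.7 at T1 at 39 and 156 nM. At 625 to 10000 nM it went from 638.6 to 286.3. With proline it went from 701.6 to 193.1 and from 619.1 to 180.1 at the same doses. The pairs without proline held 0 and 2 counts at 2.4 nM, 13 and 14 at 9.7 nM, 16 and 15 at 39 nM, 8 and 13 at 156 nM, 4 and 2 at 625 nM, 10 and 19 at 2500 nM and 6 and 8 at 10000 nM, against 0 to 6 in the controls. With proline they held 3 and 2, 4 and 0, 2 and 12, 8 and 16, 6 and 8, 5 and 6, and 6 and 6. Of the 20 libraries from 39 nM upward, 18 lay above the highest T1 control of 64.3 CPM; the exceptions were 1 library at 625 nM without proline (58.2 CPM) and 1 at 39 nM with it (42.8 CPM).

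At 39 and 156 nM without proline the T1 mean was 307.7 ± 60.5 CPM (SD, n = 4), 14.05-fold above the controls (log2 3.81, SE 0.46, in a comparison where edgeR called 29.1% of 1066 genes). With proline at these doses it was 193.1 ± 124.0 CPM (n = 4) and 7.50-fold above (log2 2.91, SE 0.49, where 12.8% were called), and the log2 change was 2.15 (SE 0.85) without the second library at 39 nM. At 625 to 10000 nM with proline it was 180.1 ± 43.2 CPM (n = 6) and 9.29-fold above (log2 3.22, SE 0.47, where 38.8% were called). Without proline at these doses the mean was 286.3 ± 240.9 CPM (n = 6), its SD set by 1 library of 746.4 CPM, and the fitted log2 change was 3.67. Leaving out the libraries under 30000 counts, which were 4 of those 6, brought that value to 2.31. Each of these folds rests on the T1 controls, which entered the choice and held 18 counts in 12 libraries (25.9 unscaled CPM pooled, exact Poisson 95% interval 15.3 to 40.9, which covers counting error only). The treated means at T1 from 39 nM upward, 180.1 to 307.7 CPM, lay around the T0 control mean of 267.8 CPM.

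**Figure D2:**
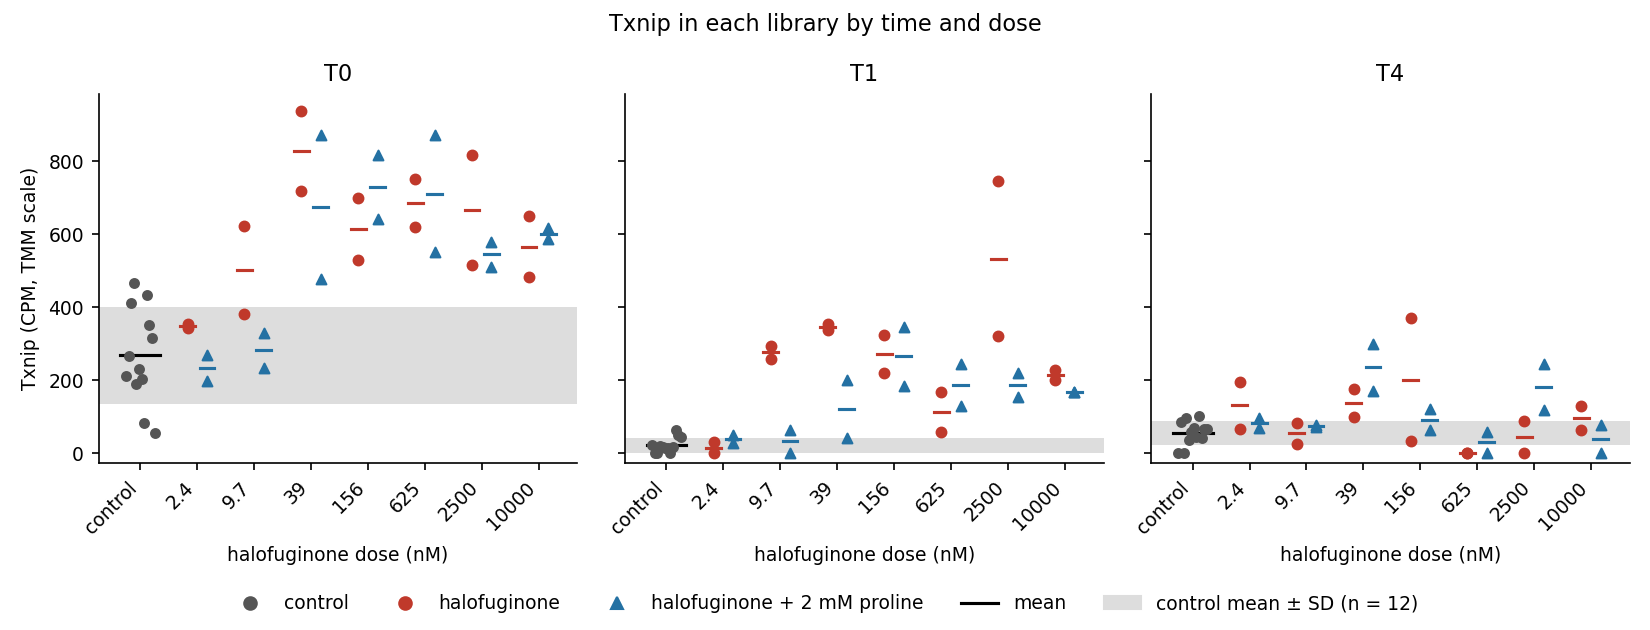
Txnip level (CPM, TMM scale, linear axis) in each library, by halofuginone dose and time label, without proline (circles) and with 2 mM proline (triangles), with group means as bars and the control mean ± SD of 12 libraries as a grey band. At T0 all 20 libraries from 39 nM upward lie above every control, at T1 18 of 20 do, and at T4 the treated and control libraries overlap.

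By T4 the separation had closed at the highest doses. The pairs without proline held 14 and 5, 1 and 3, 4 and 6, 9 and 1, 0 and 0, 3 and 0, and 6 and 2 Txnip counts from 2.4 to 10000 nM. With proline they held 5 and 7, 5 and 5, 10 and 15, 3 and 2, 2 and 0, 8 and 5, and 3 and 0. At 625 to 10000 nM only 1 of 6 libraries without proline and 2 of 6 with it lay above the highest T4 control of 101.1 CPM, and 3 and 2 of them were at 0.

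The T4 means at 625 to 10000 nM were 47.2 ± 55.7 CPM without proline and 83.4 ± 91.5 with it (SD, n = 6 each), beside 55.5 ± 33.1 in the controls. Neither difference passed the threshold (log2 change -0.997, SE 0.91, edgeR adjusted p = 0.360, where 54.6% of 1315 genes were called, and 0.60, SE 0.67, adjusted p = 0.470, where 52.0% were called). The fitted -0.997 was -2.65 without the first library at 2500 nM and -0.81 without the second, with no call in either case. The 625 nM pair had no count. Pooled, the 6 libraries without proline held 11 counts, or 41.0 unscaled CPM (95% interval 20.4 to 73.3), and the controls 57.3 unscaled CPM (42.8 to 75.2), which overlap. At 39 and 156 nM Txnip was still 3.72-fold higher without proline at T4 (169.6 ± 146.4 CPM, n = 4, log2 1.895, SE 0.58, adjusted p = 0.0069, where 40.6% were called). That call was lost without the first library at 156 nM, which has under 30000 counts (log2 0.51, adjusted p = 0.737), and without the second at 39 nM (log2 1.57, adjusted p = 0.0854). With proline at these doses the mean was 163.6 ± 100.4 CPM and the change did not pass (log2 1.61, SE 0.62, adjusted p = 0.0617, where 16.8% were called). No T4 control exceeded 120.1 unscaled CPM, so Txnip passed the filter at T4 through treated libraries. The highest held 308.9 (first at 156 nM) and 210.7 (first at 2.4 nM) without proline and 325.6 (second at 39 nM) with it. The adjusted p at 39 and 156 nM therefore describe the fit only.

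Fitted differences between times in the change from control are given as descriptions. Choosing Txnip for a high T1 change less T0 change in itself favours a negative T4 change less T1 change. Under halofuginone at 625 to 10000 nM without proline, the T1 change less the T0 change, the value that chose Txnip, was 2.09 on the log2 scale (6.09% of genes were called), and it was 0.80 without the libraries under 30000 counts. The T4 change less the T0 change was -2.68 (SE 0.84, where 17.6% of 1468 genes were called) and the T4 change less the T1 change -4.72 (where 5.61% were called). Both take their treated libraries at the earlier time, as well as its controls, from the choosing contrast. The first of them became -4.20 without the first T4 library at 2500 nM. With proline the T1 change less the T0 change was 1.83 (SE 0.51, where 5.63% of 1172 genes were called). It rests on the same 24 controls as the choosing value and is no independent support for it. The T4 change less the T1 change with proline, a comparison added after seeing the data, was -2.68 (SE 0.79, where 2.96% of 1451 genes were called). The T4 change less the T0 change was -0.97 (SE 0.63, where 15.4% of 1486 genes were called). The median over all genes tested lay between -0.54 and -0.01 in these contrasts.

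With 2 mM proline added, no tested Txnip difference at matched doses from 39 nM upward passed the threshold. At T4 and 625 to 10000 nM, with against without proline gave a log2 difference of 1.59 (SE 1.07, 95% interval -0.50 to 3.69, edgeR adjusted p = 0.577, where 0% of 1315 genes were called at this threshold and 145 had an unadjusted p under 0.05). At 39 and 156 nM the difference was -0.05 at T0 (interval -0.63 to 0.54, adjusted p = 0.994, where 2.12% were called), -0.91 at T1 (interval -1.86 to 0.05, adjusted p = 0.383, where 1.31% were called) and -0.28 at T4 (interval -1.67 to 1.1, adjusted p = 0.861, where 3.73% were called). These intervals leave room for differences of more than 1 log2 unit at T1 and T4. At 625 to 10000 nM the fitted differences at T0 and T1 were -0.20 and -0.46 (where 0.177% and 0% of genes were called), given without a test since the libraries without proline chose the gene. Dose by dose, the T1 values of the arms are listed without a comparison to other genes. How often such pairs lie apart over all genes was not counted. The libraries without proline at 625 to 10000 nM also chose Txnip as high at T1. At 39 nM the CPM were 336.1 and 352.5 without and 42.8 and 199.1 with proline. At 2500 nM they were 319.7 and 746.4 against 154.3 and 220.2, and at 10000 nM 228.1 and 199.2 against 168.2 and 166.4. At 156 and 625 nM the pairs overlapped. At T4 the 2500 nM pairs held 88.9 and 0 CPM without proline and 244.8 and 119.2 with it. These are descriptions.

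At 9.7 nM the Txnip values of the arms lay apart at T1, and as this dose was singled out after its values were seen they are a description. At T1 the 2 libraries without proline held 13 and 14 Txnip counts (292.8 and 259.0 CPM) and the 2 with proline 4 and 0 (64.4 and 0 CPM). Without proline Txnip was 11.3-fold above the controls at this dose (log2 3.50, SE 0.56, where 7.13% of genes were called), and with proline the change was 0.44 (SE 0.87, where 0.0938% were called). With against without proline gave -3.06 (SE 0.84, where 1.69% were called). At T0 the difference at this dose was -0.86 (SE 0.47, where 2.3% were called), and at T4 it was 0.35 (SE 1.12, where 1.06% were called). Against control at 9.7 nM, T0 gave 0.96 without proline (SE 0.34, where 6.73% were called) and 0.10 with it (SE 0.38, where edgeR called 0% and the unadjusted p was under 0.05 for 64 genes). T4 gave 0.11 (SE 0.96) and 0.45 (SE 0.74; 5.02% and 0.076% were called).

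The T0 and T1 slopes without proline were 0.28 and 0.59 log2 units per 10-fold dose, given as a description (38.9% and 27.1% of genes were called). Across the 14 treated libraries of an arm, Txnip rose with log10 dose at T0 with proline by 0.38 log2 units per 10-fold dose (SE 0.12, edgeR adjusted p = 0.00874, where 49.0% of 449 genes were called). At T1 with proline the slope was 0.77 (SE 0.20, adjusted p = 0.003375, with the members kept in the fit, where 41.5% of genes were called). Both calls were lost when no filter on low counts was used (0.29, adjusted p = 0.188, and 0.58, adjusted p = 0.122). These 2 slopes sum up a step, not a steady rise. With proline at T0 the mean was 282.1 CPM at 9.7 nM, 674.1 at 39 nM and 601.5 at 10000 nM. With proline at T1 it was 32.2 CPM at 9.7 nM, 265.2 at 156 nM and 167.3 at 10000 nM. The slopes at T4 did not pass in either arm (-0.14 without proline, adjusted p = 0.670, and 0.18 with it, adjusted p = 0.514, with the members kept, where 35.6% and 54.7% of genes were called).

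Txn1 moved the other way: it was lower under halofuginone, most visibly at T4 when the controls were highest. From 2.4 to 10000 nM the T4 pairs without proline held 16 and 35, 10 and 5, 9 and 0, 0 and 0, 2 and 1, 1 and 4, and 1 and 1 counts, and those with proline 42 and 17, 36 and 22, 7 and 16, 1 and 0, 0 and 2, 0 and 3, and 0 and 1. The controls held 7 to 38. At 2.4 and 9.7 nM the levels lay around those of the controls (267.9 ± 134.0 CPM without proline and 418.1 ± 158.3 with it, n = 4 each, beside 275.9 ± 130.7), and the counts were lower from 39 or 156 nM upward.

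Txn1 at 625 to 10000 nM averaged 53.4 ± 50.0 CPM without proline and 33.98 ± 43.74 with it at T4 (SD, n = 6 each), and 5 of 6 and 6 of 6 libraries lay below the lowest control of 125.0 CPM. The decrease was -2.14 on the log2 scale without proline (SE 0.53, edgeR adjusted p = 5.719e-04) and -2.80 with it (SE 0.61, adjusted p = 9.773e-05), in comparisons where 54.6% and 52.0% of genes were called. No library at these doses exceeded 130.4 unscaled CPM at T4. Txn1 therefore passed the filter there through controls and libraries at lower doses, where it was high. The p-values of its T4 decreases carry that limit. The value with proline became -4.35 without the second library at 2500 nM and -4.38 without the second at 625 nM, both with the call kept. The decrease at 39 and 156 nM was -3.86 without proline (SE 1.07, adjusted p = 0.00299), where 3 of 4 libraries had no Txn1 count, and it became -6.82 without the first library at 39 nM. With proline at these doses the mean was 119.8 ± 141.7 CPM and the change of -1.81 did not pass (SE 0.68, adjusted p = 0.0534). It passed without the second library at 39 nM (-2.28, adjusted p = 0.0285). The libraries left out in these fits were among those with the most Txn1 counts in their groups, so leaving them out deepens the decrease in itself. With the replicate number added to the fit, both decreases without proline missed the threshold.

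Proline did not separate Txn1 at T4 beyond the spread. With against without proline gave -0.66 at 625 to 10000 nM (SE 0.94, 95% interval -2.51 to 1.19, adjusted p = 0.872) and 2.05 at 39 and 156 nM (SE 1.87, interval -1.62 to 5.72, adjusted p = 0.568). Leaving out 1 library at a time, the first ranged from -2.13 to -0.14 and the second from 0.37 to 4.96, with no call. Across the 14 treated libraries with proline at T4, Txn1 fell by 1.13 log2 units per 10-fold dose (SE 0.24, edgeR adjusted p = 3.756e-04). There it passed the filter through the libraries at the low doses, where it was high, and this p carries that limit. Without proline the slope was -0.90 (SE 0.24, adjusted p = 0.0054) with the members kept in the fit. The T4 change less the T0 change at 625 to 10000 nM did not pass in either arm (-0.94, SE 1.02, adjusted p = 0.613 without proline, and -0.25, SE 0.73, adjusted p = 0.908 with it), so the decrease was not shown to differ between T0 and T4.

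At T0 and T1 Txn1 was too sparse for the filter, with 1 to 10 counts per control and 0 to 2 per library at 625 to 10000 nM. Pooled over 6 libraries it had 5 counts without proline at T0 (20.7 unscaled CPM, exact Poisson 95% interval 6.73 to 48.4) and 5 with it (16.7, 5.42 to 39.0), beside 84.7 in the controls (64.1 to 109.7). These intervals cover counting error only. Libraries of a group differed by more than that, so the intervals are too narrow to compare groups. At T1 the pools held 5 and 3 counts (27.3 and 12.9 unscaled CPM), beside 117.8 in the controls (93.7 to 146.2). With the members kept in the fit, the changes with proline passed at T0 (-2.74, SE 0.90, edgeR adjusted p = 0.0096) and T1 (-2.37, SE 0.75, adjusted p = 0.0090). Those without proline did not pass at T0 (-1.44, SE 0.74, adjusted p = 0.112) or T1 (-1.45, SE 0.70, adjusted p = 0.101). Without proline they passed when the first library at 625 nM was left out at T0 (-2.75, adjusted p = 0.0419), and at T1 when the first at 625 nM (-2.98, adjusted p = 0.0272), the second at 2500 nM (-3.01, adjusted p = 0.0347) or the first at 10000 nM (-2.57, adjusted p = 0.0473) was. At T1 these were the only 3 of the 6 libraries with a Txn1 count, and the T0 library held 2 of the 5 counts. Leaving out such a library deepens the decrease in itself, so these passes add no support. Leaving out other libraries gave adjusted p up to 0.267 at T0 and 0.286 at T1. With proline at T1 the value became -3.58 without the second library at 2500 nM. With the replicate number added to the fit, the T0 value with proline missed the threshold. The T1 change at 39 and 156 nM without proline was -3.72 (SE 1.06, adjusted p = 0.0054), with 2 counts in 4 libraries. In bulk wells, fewer cells and less RNA of a kind per cell cannot be told apart.

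**Figure D3:**
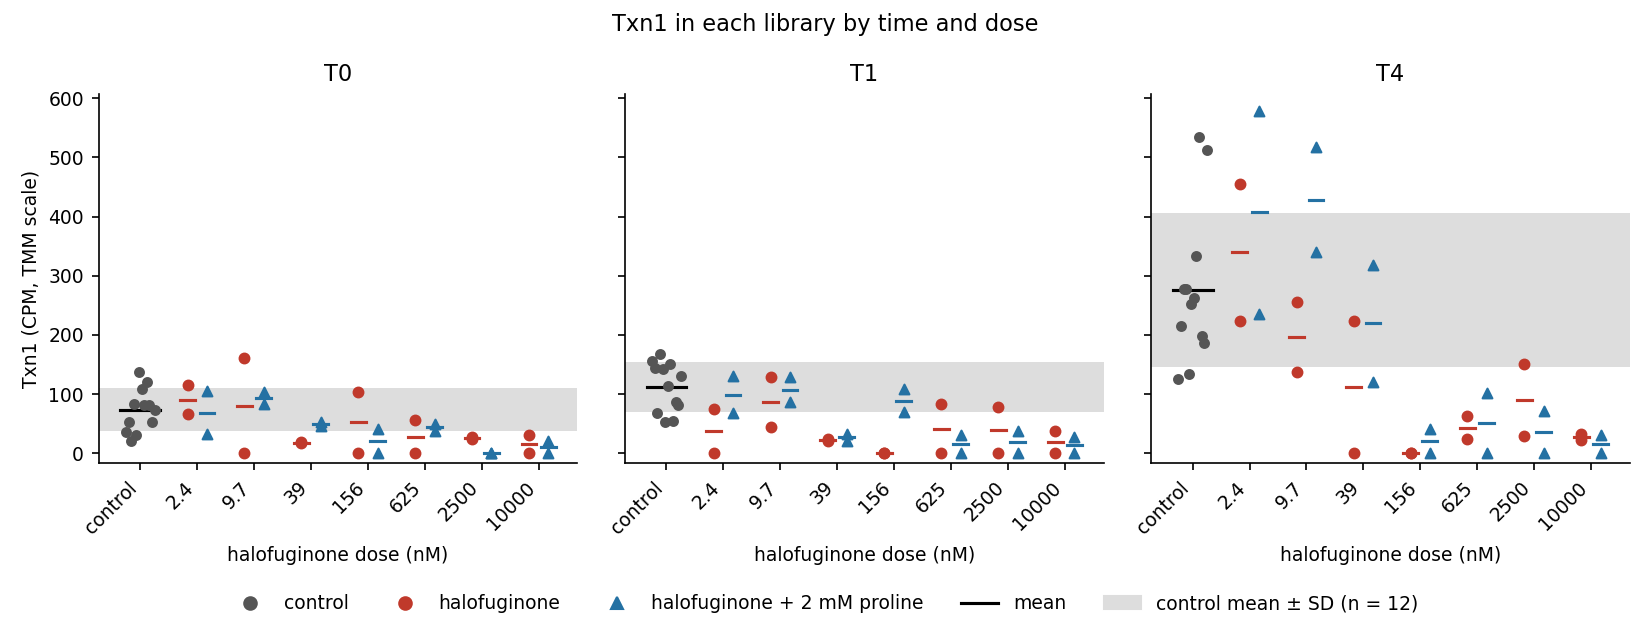
Txn1 level (CPM, TMM scale, linear axis) in each library by halofuginone dose and time label, drawn as for Txnip, with the control mean ± SD of 12 libraries as a grey band. At T4, 11 of the 12 libraries at 625 to 10000 nM lie below the lowest control of 125.0 CPM, and those at 2.4 and 9.7 nM spread around the control mean of 275.9.

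**Figure D4:**
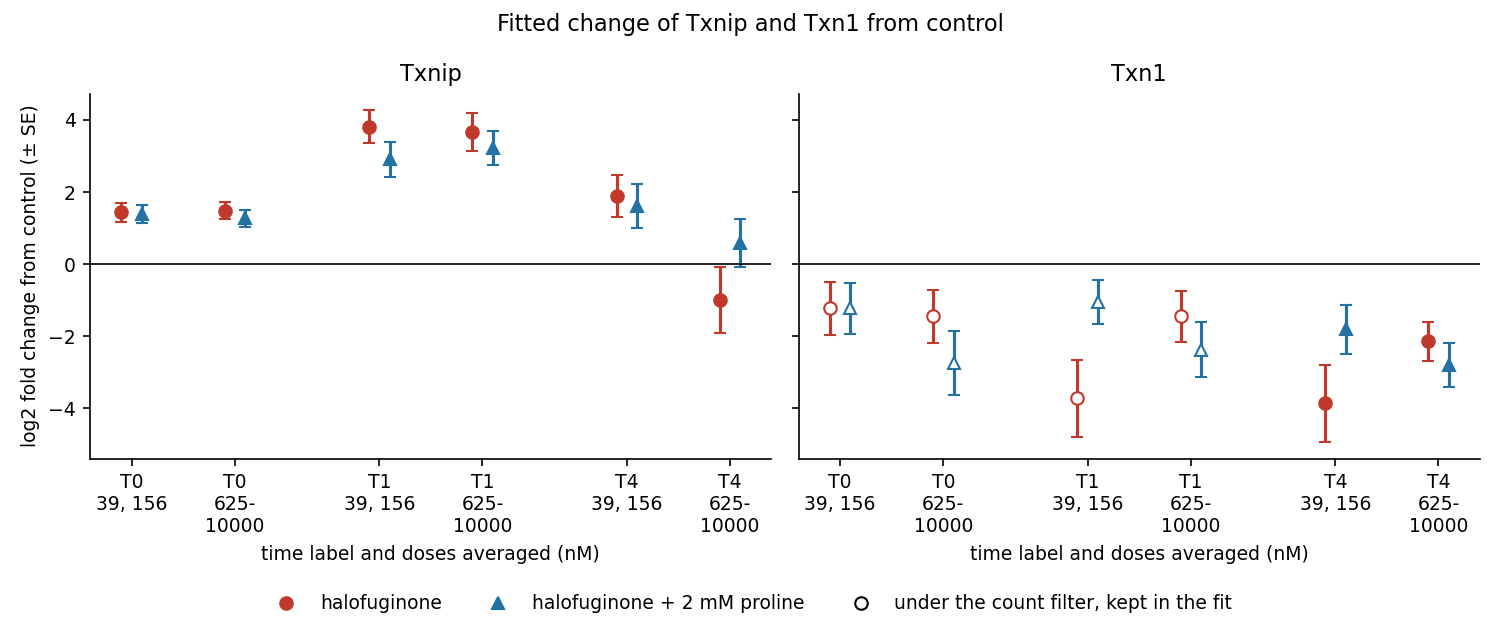
Fitted log2 fold change from control ± SE of Txnip and Txn1 at the middle and the highest doses, by time label and arm; open symbols mark Txn1 values under the count filter, kept in the fit. Txnip lies above 0 at T0 and T1 in both arms and returns toward 0 at T4 at the highest doses, while all Txn1 values lie below 0.

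The alpha-arrestins Arrdc4 and Arrdc3 passed the filter on low counts in no comparison. Arrdc4 had 13 counts in the 12 T0 controls, 10 at T1 and 11 at T4, between 0 and 5 per library. At T4 it was at 0 in all 6 libraries at 625 to 10000 nM without proline, 0 of 268583 counts, which allows up to 11.2 unscaled CPM by the floor of 3 counts and 13.7 by the exact Poisson 95% limit, beside 12.1 unscaled CPM in the controls. A difference there was not detectable at this depth. With proline at 39 and 156 nM Arrdc4 had 13 counts in 4 libraries at T0 (54.7 unscaled CPM, exact Poisson 95% interval 29.1 to 93.5), above the controls' 19.3 (10.3 to 33.0) with intervals that meet. Its fitted change there was 1.53 with the members kept in the fit (SE 0.77, edgeR adjusted p = 0.175). At T4 with proline at these doses it had 8 counts (45.4 unscaled CPM, 19.6 to 89.4) beside the controls' 12.1 (6.05 to 21.7), and the change of 1.99 did not pass (SE 1.06, adjusted p = 0.193). The single Arrdc4 result past the threshold with the members kept was the T4 dose slope without proline, -1.20 log2 units per 10-fold dose (SE 0.37, edgeR adjusted p = 0.013, where 35.6% of genes were called). It rests on 1 and 5 counts at 2.4 nM, 3 and 0 at 9.7 nM and 2 and 0 at 39 nM, with none from 156 nM upward.

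Arrdc3 had 6 counts in the T0 controls, 2 at T1 and none at T4, where 0 of 907400 counts allows up to 3.31 unscaled CPM by the floor of 3 counts and 4.07 by the exact Poisson 95% limit, beside 8.91 at T0 (exact Poisson 95% interval 3.27 to 19.4). With the members kept in the fit the T4 decrease passed in edgeR (adjusted p = 0.0048) and not in DESeq2 (adjusted p = 0.342), so the call depends on the tool. In the treated libraries Arrdc3 never exceeded 3 counts.

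Around the members, the genes of thioredoxin's own circuit moved unevenly. Txnrd1, the cytosolic thioredoxin reductase, rose in controls by 1.80 on the log2 scale at T1 (SE 0.29, edgeR adjusted p = 4.44e-07) and was 1.46 above T0 at T4 (SE 0.29, adjusted p = 1.043e-05), so at T4 both tested genes of 5 thioredoxin and reductase genes, Txn1 and Txnrd1, were higher, in a comparison where 76.4% of genes were called. Under the 3 highest doses, 625 to 10000 nM, Txnrd1 did not differ from control at T4 beyond its spread (-0.50, adjusted p = 0.350 without proline, and 0.43, adjusted p = 0.383 with it). Txn2, the mitochondrial thioredoxin, had too few counts to test. Prdx1, the peroxiredoxin that thioredoxin recharges, averaged 404.9 ± 103.8 CPM in T0 controls and 99.8 ± 51.8 at 625 to 10000 nM without proline.

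Prdx1 fell at these doses at every time without proline, with log2 changes of -1.82 (SE 0.33, adjusted p = 4.849e-06) at T0, -1.95 (SE 0.42, adjusted p = 1.464e-04) at T1 and -5.725 (SE 0.66, adjusted p = 3.262e-11) at T4, where 38.5%, 34.5% and 54.6% of genes were called. With proline its changes were -1.175, -1.617 and -3.67, all past the threshold. It was the only tested gene among 13 thioredoxin clients at T0 and T1 and 1 of 2 at T4, where the other, Prdx5, did not pass (-0.42, adjusted p = 0.401). Gpx1, the glutathione peroxidase of the parallel pathway, changed without proline by -1.29 at T0, -1.97 at T1 and -2.36 at T4, all past the threshold, whereas Gpx4, which protects lipids from peroxidation, was tested beside it and did not pass at any time. Among 19 thioredoxin-fold relatives 1 was tested at T0 and T1 and 2 at T4, of which only Txnl1 with proline at T4 rose (1.899, SE 0.55, adjusted p = 0.00287). The median log2 change over all genes tested at these doses lay between -0.23 and -0.07.

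**Figure D5:**
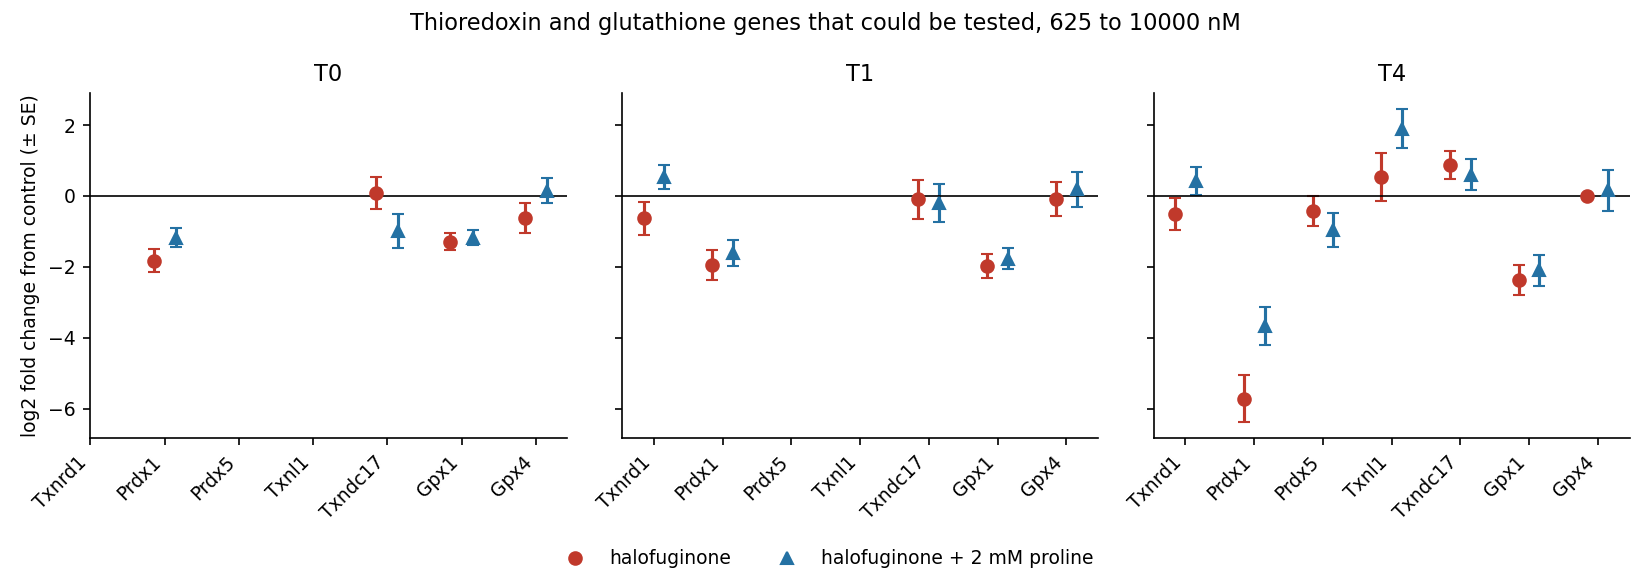
Fitted log2 fold change from control ± SE at 625 to 10000 nM, without (circles) and with proline (triangles), for the thioredoxin-circuit and glutathione genes that passed the count filter at each time label; a gene with no symbol was not tested at that time, and no error bar is drawn for a change under 0.01. Prdx1 and Gpx1 lie below 0 at all 3 times in both arms, with Prdx1 at -5.725 without proline at T4, while Txnl1 lies above 0 with proline at T4.

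Genes tied to Txnip's other known roles were mostly under the filter or moved with time. None of the 3 genes for MondoA, ChREBP and their partner Mlx could be tested, and Txnip was the only 1 of 6 alpha-arrestins that could. Of 6 glucose transporters and hexokinases 2 were tested in controls, where 76.4% of genes were called at T4: Slc2a6 rose in controls by 3.34 at T4 (SE 0.32, edgeR adjusted p = 5.852e-14) and Hk2 by 1.14 (adjusted p = 7.217e-04). At 625 to 10000 nM without proline at T4, where 54.6% of genes were called, 4 of the 6 were tested. There Slc2a6 (-1.17) and Hk2 (-1.23) fell and Hk1 rose (1.83). Of 5 NLRP3 inflammasome genes 2 were tested at T0, where 38.5% of genes were called. Both Nlrp3 (2.94, SE 0.44, adjusted p = 7.598e-08) and Il1b (4.26, SE 0.43, adjusted p = 2.032e-13) also rose at T0 under 625 to 10000 nM without proline. Which of the 5 were tested can depend on the rise itself, since the filter can be passed through treated libraries alone. At T4 there, where 54.6% of genes were called, 4 were tested. There Nlrp3 was higher (0.79, adjusted p = 0.0120), while Pycard, the adaptor (-3.11), Casp1 (-0.95) and Il1b (-1.98) fell.

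The list of 18 forkhead and glucocorticoid regulators and targets includes several genes known to share control with Txnip. At T0 under 625 to 10000 nM without proline 4 of them were tested. All 4 rose, where 38.5% of genes were called in either direction: Btg2 by 4.26, Irs2 by 4.60, Cited2 by 1.65 and Btg1 by 1.01. A gene low in controls could pass the filter through treated libraries alone. Which of the 18 were tested can therefore depend on the rise itself. At T1 only Btg2 of 4 tested rose (1.5, SE 0.33, edgeR adjusted p = 1.913e-04), where 34.5% of genes were called in either direction. At T4, where 54.6% were called, Btg1 rose (0.82) while Nr3c1, the glucocorticoid receptor gene, fell (-1.62). The only tested ligase of 5 in the NEDD4 family, which includes Itch, the ligase known to mark Txnip for destruction, was Wwp1, and it did not pass at T0 or T1.

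Over the 45 groups of time, dose and arm, the genes with at least 1000 counts whose mean log2 level followed Txnip most closely were Rgs2 (Pearson r = 0.759), Eif5 (0.722), Apobec1 (0.691), Thbs1 (0.679) and Id2 (0.655). Those most opposed were Ccl9 (-0.759), Cxcl10 (-0.757) and Plek (-0.743). For Txn1 they were Tspo (0.896), Lrrc58 (0.888), Actb (0.885), H2-T23 (0.873) and Ifitm3 (0.861), and at the other end Malat1 (-0.776), Jun (-0.734) and Rnu6 (-0.729). Txnip and Txn1 themselves correlated at -0.356. These are descriptions over 45 points that share depth, scaling and, within a time, their place in the dose series.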

How the data were processed

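The deposited table holds whole-number counts per gene symbol, not normalized by the authors. Per the submitters' processing notes reads were aligned with BWA to mm10, and per the labels' protocols libraries were 3′ digital gene expression. The sources used here name no counting program, annotation, strand setting or treatment of molecular identifiers. Counts were scaled by TMM and tested with edgeR 4.0.16 (R 4.3.3, limma 3.58.1): two-sided quasi-likelihood tests over 36 controls, 40 libraries of a time, 36 of a difference between times, or 14 of a dose slope, with Benjamini-Hochberg adjustment over all genes tested, a threshold of 0.05 and a filter (filterByExpr) with minimum count 10. The SE is the log2 change divided by the square root of F, and CPM are on the TMM scale. Alternatives included DESeq2 1.42.0. Pooled per-million values use summed counts, with exact Poisson 95% intervals and a floor of 3 counts, for counting error only.

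The members, gene lists and tests were chosen with earlier results of these data known. All 4 members are named, and from each list at most 4 genes per comparison, those with the smallest adjusted p. The single dose of 9.7 nM, the T4 less T1 differences and the fits with the members kept were added after seeing the data. Of 240 replicate pairs none agreed within sampling noise. The fitting code was also run on simulated counts, but the outcome is not given here and no result above rests on it.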

Additional observations from a re-analysis of the deposited data

Results flagged for a closer look

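The change in Txnip from control at 625 to 10000 nM differed in size between times in 3 fitted differences. Without proline the T4 change less the T0 change was -2.68 (log2, SE 0.84), and its T0 libraries, both the 12 controls and the 6 treated ones, were in the contrast that chose Txnip. With proline the T1 change less the T0 change was 1.83 (SE 0.51), on the same 24 controls as the choosing contrast. With proline the T4 change less the T1 change was -2.68 (SE 0.79), a comparison added after seeing the data, and its T1 controls were in the choosing contrast. The 3 values are therefore descriptions, given without a p, and none is independent support for the choice.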

How the results depend on the processing

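For Txnip values on libraries that entered its choice, and for 9.7 nM, passing or missing the threshold describes the fit only. The same holds for Txnip at 39 and 156 nM against control at T4. Without a filter on low counts, values that missed the threshold were Txnip at 39 and 156 nM at T4 without proline (1.47), its T4 less T0 difference without proline (-2.62), its T1 less T0 difference with proline (1.59) and its dose slopes at T0 without (0.12) and with proline (0.29) and at T1 without (0.39) and with it (0.58), with against without proline at 9.7 nM at T1 (-2.90) and its T4 less T1 difference with proline (-2.67). There the sign turned for 3 Txnip values that were not called: with against without proline at 39 and 156 nM at T0 (0.0319), 9.7 nM without proline at T4 (-0.0851) and the T4 slope with proline (-0.11). With median-of-ratios scaling Txn1 at 39 and 156 nM with proline at T4 passed (-1.925), the Txnip T1 slope without proline did not (0.55), and the uncalled Txn1 T4 less T0 difference with proline turned (0.0066). Without Rn45s, Lars2 and small structural RNAs that Txn1 value passed (-1.89) and the Txnip slopes without proline did not (0.25 at T0, 0.56 at T1).

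Without libraries under 30000 counts, Txnip missed the threshold at 625 to 10000 nM without proline at T1 (2.31), at 39 and 156 nM without proline at T4 (0.52), in the T1 less T0 differences without (0.80) and with proline (1.64) and in the T1 slope without proline (0.43), and the uncalled differences with against without proline turned at 625 to 10000 nM at T1 (0.67) and at 39 and 156 nM at T4 (0.74). Without the 10000 nM dose the Txn1 T4 less T0 difference with proline turned (0.35). The Txnip T4 less T1 difference with proline also missed the threshold with median-of-ratios scaling (-2.64), the replicate block (-2.75), without libraries under 30000 counts (-2.43) and without the 10000 nM dose (-2.445). The cause was not tested.

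Leaving out 1 treated library at a time (96 fits), Txnip ranged from 2.15 to 3.18 at 39 and 156 nM with proline at T1, from 0.51 to 2.26 without proline at T4, from -1.001 to 0.78 at 625 to 10000 nM with proline at T4, from -0.27 to 0.17 (T0) and -0.72 to 1.05 (T4) for with against without proline at 39 and 156 nM, from -4.20 to -2.43 for T4 less T0 without proline and from 1.55 to 1.94 for T1 less T0 with proline. Txn1 ranged from -3.54 to -1.27 at 39 and 156 nM with proline at T4, and its T4 less T0 difference from -1.44 to 0.33 without proline and from -1.75 to 0.56 with it.

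Replicate numbers were weakly tied to the levels of the libraries. The median correlation of same-numbered controls was 0.036, 0.050 and 0.041, beside -0.0024, -0.0094 and -0.0071 for other numbers. Single same-numbered pairs reached 0.220, 0.247 and 0.161. Of 12 controls, 3 or 4 correlated best with their own number. What same-numbered libraries share was not tested. With the replicate block the values at T4 of Txn1 at 625 to 10000 nM (-1.58) and at 39 and 156 nM (-3.31) and of Txnip at 39 and 156 nM (1.94), all without proline, of Txn1 at 625 to 10000 nM with proline at T0 (-2.06), and of the Txnip difference between the arms at 9.7 nM at T1 (-3.03) missed the threshold. The block took the genes called at T0, T1 and T4 from 435, 368 and 718 to 235, 208 and 424 at 625 to 10000 nM without proline, and from 492, 414 and 684 to 260, 214 and 393 with it. At 39 and 156 nM it took them from 321, 310 and 534 to 132, 154 and 261, and from 152, 136 and 221 to 41, 53 and 52. Without a filter the genes called in controls went from 185 to 318 (T1 against T0), 541 to 2194 (T4 against T0) and 440 to 1745 (T4 against T1), at 39 and 156 nM with proline to 80, 49 and 137, at 625 to 10000 nM without proline at T1 to 559, and for T4 less T0 without proline from 258 to 151. Depth limits all members: 3 counts over the 12 T1 controls are 4.31 unscaled CPM, and a single T1 control held at most 6 Txnip counts.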
